A study of Arabidopsis thaliana with 24 samples.

Results

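The gl3 and cpc mutants of Arabidopsis thaliana were compared over all 21440 genes measured in sorted cells of the developing root epidermis. The comparison used the 3 arrays titled gl3 mutant and the 3 titled cpc mutant, 6 of the 24 arrays in the study. Genes were every entry of the expression table other than the array manufacturer's controls. The gl3 plants carried gl3-1 and the cpc plants carried cpc-1, and both carried the reporter WER::GFP, a green fluorescent protein under the WEREWOLF promoter, which is active in the developing epidermis and in the lateral root cap. Seedlings were 5 days old, the last 2 mm or so of each root was taken and its cells separated, and fluorescent cells were sorted, so each array averages all developmental stages of hair and non-hair cells together with lateral root cap cells. The titles number the 3 arrays of each mutant as biological replicates. As wild type was not analysed here, a difference says only how the 2 mutants stand to each other. Of the 18 other arrays, 15 came from the single mutants egl3, myb23, try, ttg2 and wer, and 3 were labelled cpc ttg2.

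The root epidermis forms hair and non-hair cells in files set by a network of transcription factors. In non-hair cells, the bHLH factor GLABRA3 (GL3) works with its relative EGL3, the R2R3 MYB factors WEREWOLF (WER) and MYB23, and the WD40 protein TTG1 to switch on GL2, a homeodomain factor that represses hair formation. CAPRICE (CPC) is a small single-repeat MYB protein that is made in non-hair cells, moves to the neighbouring hair cells and competes there with WER for the bHLH partners, so that loss of CPC leaves fewer root hairs. GL3 and EGL3 overlap in function, so loss of GL3 alone has a milder effect than loss of both.

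All levels below are log2 values after robust multi-array averaging (RMA), and each difference is the gl3 mean minus the cpc mean on that log2 scale, with the standard error (SE) of the fit. A gene was called at an adjusted p under 0.05 in limma, a linear model fitted to all genes and all 24 arrays with Benjamini-Hochberg (BH) adjustment over the 21440 genes. The array medians ran from 6.71 to 6.91 in gl3 and from 6.58 to 6.77 in cpc, and correlations between arrays of the same line ran from 0.954 to 0.965 in gl3 and from 0.918 to 0.968 in cpc. The median SD over genes was 0.354 in gl3 and 0.357 in cpc, the 2 highest of the 8 lines, so the spread shared by all lines in the fit is smaller than theirs. The epidermal factor WER ran from 10.69 to 11.50 on the 6 arrays. The mean over 14 ground tissue markers ran from 4.20 to 5.17 in gl3 and from 4.14 to 5.12 in cpc, and that over 16 stele markers from 4.89 to 5.04 and from 4.81 to 5.16.

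The transcripts of the mutated genes could not settle the labels, because an allele can disrupt a protein and leave the transcript in place. GL3 had no entry among the genes measured. CPC stood at 10.79, 10.40 and 11.25 on the gl3 arrays and at 10.42, 9.60 and 9.62 on the cpc arrays. Replicate 1 of cpc lay above replicate 2 of gl3, so the lines overlapped, and the difference of 0.94 ± 0.303 (SE) did not pass the limma test (BH-adjusted p = 0.227). The CPC mean of 9.88 in cpc was close to that in wer (9.85), the lowest of the 5 other single mutants.

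Few genes separated the 2 mutants. The test called 108 of 21440 genes (0.504%), of which 69 (0.322%) were higher in gl3 and 39 (0.182%) were lower. At an unadjusted p under 0.05 the share was 11.5%, and the 3 arrays of each line did not overlap for 12.3% of all genes and for 107 of the 108 called genes. Among all 28 pairs of the 8 lines this count ranked 7 from the lowest, in a range of 0 to 7477. The called differences had a median size of 2.07, against 0.28 over all genes, and the lower line's mean was under 4 for 28 of the called genes (25.9%, against 24.4% of all genes). Of the calls, 36 held whichever of the 6 arrays was left out, 30 of the 69 higher in gl3 and 6 of the 39 lower. Only 16 genes were called when the fit used the 6 arrays alone. The count was 46 without cpc replicate 2, 46 without cpc replicate 3, 47 without gl3 replicate 2 and 56 without gl3 replicate 3. It rose to 156 without cpc replicate 1 and to 212 without gl3 replicate 1.

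**Figure D1:**
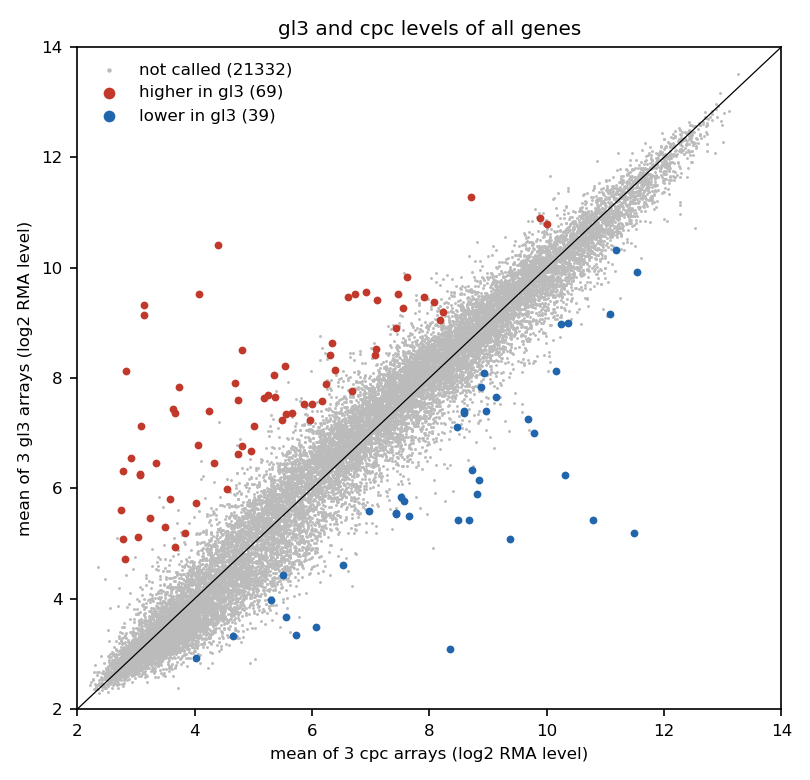
Each point is a gene, with its mean over the 3 cpc arrays on the x axis and over the 3 gl3 arrays on the y axis, both as log2 RMA levels, and the line marks equal levels. Red points are the 69 genes called higher in gl3, blue points the 39 called lower and grey points the 21332 not called, and the called genes lie at all levels.

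Of the 2 lines, cpc stood further from the 5 other single mutants than gl3 did. Set against the mean of those 5 in the same fit, cpc differed in 448 genes (2.09%) and gl3 in 8 (0.0373%), and both tests shared those 15 arrays. The other lines were not set against such a mean. Paired with each of the 5, cpc gave 85 (ttg2) to 654 (wer) calls and gl3 gave 0 (myb23) to 175 (try). The pair of try and wer gave 1093, and cpc against the arrays labelled cpc ttg2 gave 1950. For 94 of the 108 called genes (87%) the median of the 5 other lines lay nearer to gl3 than to cpc, as it did for 65.2% of all genes.

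Genes higher in gl3 included several that were bright in gl3 and close to the bottom of the scale in cpc. The largest fitted difference was in CYP706A7 (AT4G12330), a gene of the cytochrome P450 family of oxidising enzymes. Its level was 9.72, 8.82 and 9.45 on the gl3 arrays and 2.98, 3.18 and 3.25 on the cpc arrays. Every gl3 array lay far above every cpc array, and the difference was 6.20 ± 0.402 (SE, BH-adjusted p = 1.34e-08). With values under 4 set to 4 it was 5.33, and AT4G02540, whose cpc levels were all above 4, then had the largest difference of this direction (6.02). CYP706A7 was low in egl3 (3.23) and try (4.01) and high in myb23 (9.40), ttg2 (8.97) and wer (9.28). It was also high in the arrays labelled cpc ttg2 (9.25). So gl3 and cpc fell on opposite sides of a split that ran through the other lines too.

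AT5G51620 and AT5G51630, 2 neighbouring protein-coding genes with no symbol in the annotation used, were low in cpc alone. AT5G51620 had levels of 9.16, 9.17 and 9.10 in gl3 and 3.36, 3.02 and 3.06 in cpc, a difference of 6.0 ± 0.21 (SE, BH-adjusted p = 3.37e-13), which was the lowest p of all genes. In the 5 other single mutants its means ran from 8.80 to 9.29, and the arrays labelled cpc ttg2, which share the cpc-1 allele by their label, had a mean of 7.91. AT5G51630 followed, with 8.24, 7.61 and 8.55 in gl3 against 3.1, 2.90 and 2.48 in cpc (difference 5.31 ± 0.28, BH-adjusted p = 4.35e-10). Against the 5 other lines, cpc was lower by 5.97 for the first gene and by 5.30 for the second, whereas gl3 differed from those lines by 0.03 and 0.00. With values under 4 set to 4 the gl3 minus cpc differences of AT5G51620 and AT5G51630 were 5.14 and 4.13, and both were still called.

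AT4G02540 and AT4G15390 showed a wider spread of levels among the lines. AT4G02540 read 10.04, 10.36 and 10.84 in gl3 and 4.58, 4.53 and 4.09 in cpc (difference 6.02 ± 0.688, BH-adjusted p = 4.05e-05), and it was also high in myb23 and wer and low in egl3, try and the arrays labelled cpc ttg2. AT4G15390 read 9.45, 9.46 and 9.67 in gl3 and 4.71, 3.24 and 4.27 in cpc (difference 5.46 ± 0.398, BH-adjusted p = 6.5e-08), and of the other single mutants try alone matched the low level of cpc, with a mean of 4.06. Neither gene overlapped between gl3 and cpc, and both calls held in all 6 fits that left out an array.

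The next 7 genes differed by 3.54 to 4.11, with no overlap between the lines. AT4G14980 (4.05 ± 0.364), AT4G13860 (3.71 ± 0.297), AT4G19500 (3.65 ± 0.365) and AT5G43730 (3.54 ± 0.318), which is also named Resistance Silenced Gene 2, were called in all 6 fits that left out an array. With values under 4 set to 4, AT4G14980, AT4G19500 and AT5G43730 were at 3.12, 2.56 and 2.32 and still called. AT5G43520 (4.11 ± 0.699) was called in 5, AT2G04800 (3.70 ± 0.649) in 4, and AT2G13970 (3.80 ± 0.807), annotated as a pseudogene, in 1. For AT2G13970 the adjusted p reached 0.24 when an array was left out.

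**Figure D2:**
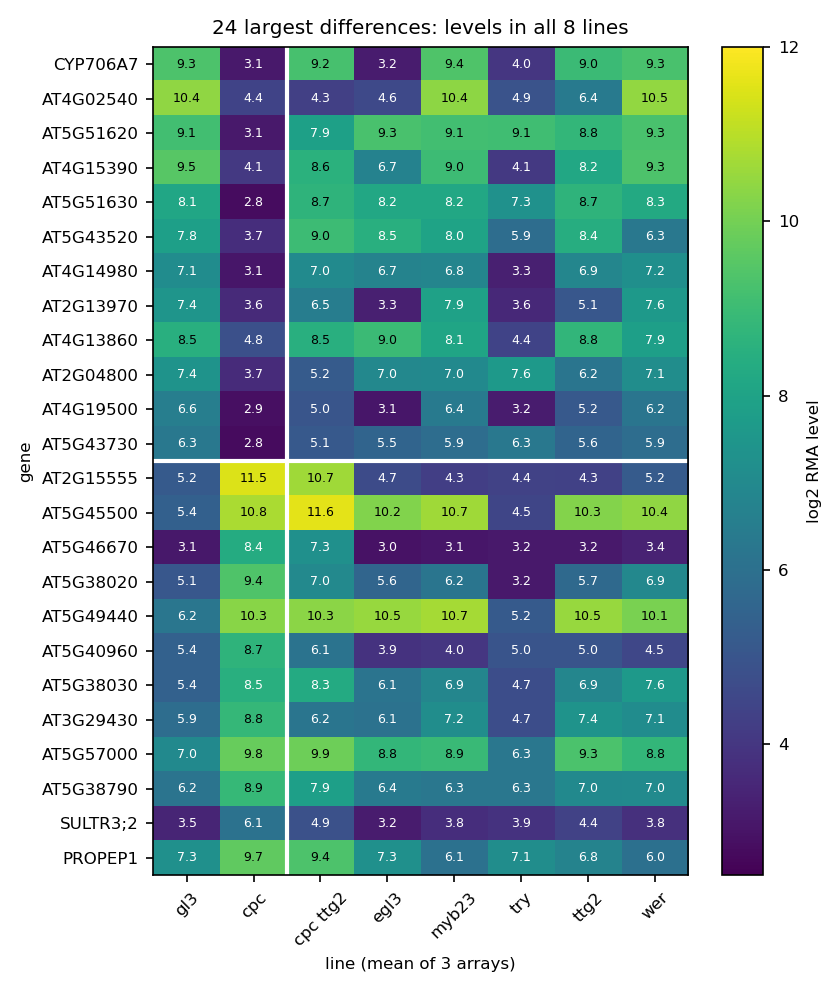
Rows are called genes without overlap, the 12 with the largest differences higher in gl3 above the white line and the 12 lower in gl3 below it, and columns are the 8 lines. Colour and the printed number give the mean log2 RMA level over 3 arrays, and many genes are near 3 in some lines and above 7 in others, as CYP706A7 is with 3.13 in cpc and 9.33 in gl3.

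Among genes lower in gl3, AT2G15555, which encodes a noncoding RNA, had the largest difference of all. It stood at 3.68, 6.22 and 5.69 in gl3 and at 10.73, 11.93 and 11.79 in cpc. The gl3 arrays differed widely among themselves and still lay below every cpc array, with a difference of -6.29 ± 0.671 (SE, BH-adjusted p = 1.65e-05). The gene was high only in cpc and in the arrays labelled cpc ttg2 (10.66), while the means of the 5 other lines ran from 4.28 to 5.22.

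AT5G46670 showed the same arrangement with less spread. Its gl3 levels were 3.13, 2.91 and 3.25 and its cpc levels 8.11, 8.12 and 8.86, a difference of -5.26 ± 0.373 (BH-adjusted p = 5.01e-08), or -4.36 with values under 4 set to 4. The arrays labelled cpc ttg2 averaged 7.26 and the 5 other lines 2.96 to 3.42. Over the 39 genes called lower in gl3, the arrays labelled cpc ttg2 lay nearer to cpc than to gl3 for 31 (79.5%), and over the 69 called higher for 36 (52.2%), beside 67.5% of all genes.

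SULTR3;2, a member of the sulphate transporter family, also had tight replicates in both lines. It read 3.86, 3.16 and 3.43 in gl3 and 5.73, 6.23 and 6.24 in cpc (difference -2.59 ± 0.406, BH-adjusted p = 0.00232). AT5G38790 was similar, with 5.84, 6.19 and 6.43 in gl3 against 8.79, 8.66 and 9.11 in cpc (difference -2.70 ± 0.388, BH-adjusted p = 0.000885). Both were called in all 6 fits that left out an array.

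PROPEP1 encodes the precursor of a small peptide that plants use as a danger signal and that cell surface receptors perceive. Its level was 6.5, 8.43 and 6.85 in gl3 and 10.58, 9.11 and 9.36 in cpc. The lines did not overlap, and replicate 2 of gl3 came closest to the cpc arrays. The difference of -2.42 ± 0.494 (BH-adjusted p = 0.0309) was called in 2 of 6 fits that left out an array, with adjusted p-values from 0.00499 to 0.148. Against the 5 other single mutants PROPEP1 was higher in cpc by 3.04 (BH-adjusted p = 9.51e-05) and in gl3 by 0.62 (BH-adjusted p = 0.906).

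In 3 of the largest differences the gl3 arrays disagreed among themselves. AT5G45500 read 10.17, 3.05 and 3.05 in gl3 against 10.94, 10.91 and 10.51 in cpc, so that gl3 replicate 1 was close to the cpc arrays and the other two were not. AT5G49440 (9.81, 4.05 and 4.87 against 9.90, 10.21 and 10.82) and AT5G57000 (9.30, 6.02 and 5.71 against 9.94, 9.69 and 9.73) had the same form. Their differences of -5.36 ± 1.14, -4.07 ± 0.902 and -2.78 ± 0.57 passed with BH-adjusted p-values of 0.0367, 0.0464 and 0.0311 in limma, and each was called in 1 of 6 fits, the one without gl3 replicate 1. The gl3 SD exceeded 1 for 9 of the 39 genes called lower in gl3 and for 3 of the 69 called higher.

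The remaining 4 of the 12 largest in this direction were AT5G38020 (-4.29 ± 0.859) and its neighbour AT5G38030 (-3.06 ± 0.586), AT5G40960 (-3.25 ± 0.717) and AT3G29430 (-2.92 ± 0.654). All had a gl3 SD above 1 and were called in 1 or 2 of the 6 fits that left out an array. For AT5G38020 the gl3 levels were 7.16, 2.84 and 5.25 and the cpc levels 8.61, 9.04 and 10.47, so the groups stood apart while replicates 1 and 2 of gl3 lay as far from each other as the line means did.

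Beyond the largest differences, several called genes have named functions, and these were chosen after their values were seen. Higher in gl3 were ALDH6B2, an aldehyde dehydrogenase (2.63 ± 0.249), UBC8, a ubiquitin-conjugating enzyme (2.57 ± 0.323), CML43, a calmodulin-like calcium sensor (2.71 ± 0.432), UMAMIT42, of a family of amino acid transporters (3.15 ± 0.385), and WRKY19 of the WRKY factor family (1.52 ± 0.24). Their BH-adjusted p-values ran from 2.98e-06 to 0.00275, and all 5 were called in all 6 fits that left out an array. SEN1, known as a dark-induced and senescence-associated gene (3.23 ± 0.707), and VRN2, a Polycomb group protein of vernalization (1.02 ± 0.215), were called in 1 of those fits each.

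Lower in gl3 were HSL1, a receptor-like kinase related to HAESA (-1.36 ± 0.198), BGAL4, a beta-galactosidase (-1.91 ± 0.327), UGT84A2, a glucosyltransferase of sinapate metabolism (-2.16 ± 0.395), GTR2, a glucosinolate transporter (-1.80 ± 0.366), and SKU5, a cell surface protein of directional root growth (-0.86 ± 0.176). HSL1 was called in all 6 fits that left out an array and the other 4 in 2 to 4. The brassinosteroid synthesis enzymes BR6OX2 (-1.39 ± 0.279) and ROT3 (-0.83 ± 0.182) and the auxin-responsive homeodomain factor HAT2 (-1.27 ± 0.252) were lower in gl3 too. They were called in 2, 0 and 2 of those fits.

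None of the 17 measured genes of the epidermal patterning network passed the test, of 19 listed, and GL3 and CPL3 were not measured. At an unadjusted p under 0.05 the count was 5 of 17, beside 11.5% of all genes. Their differences ran from -1.37 to 2.14 with a median of 0.07, and 9 of 17 were positive, beside 50.1% of all genes. Centring each array on its own median lowered the median of all genes to -0.10 and that of this list to -0.04.

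MYC1, a bHLH factor related to GL3 and EGL3, had the largest difference in the network. It stood at 7.13, 8.47 and 8.76 in gl3 and at 6.51, 6.51 and 4.93 in cpc. Every gl3 array lay above every cpc array, yet the difference of 2.14 ± 0.582 did not pass (BH-adjusted p = 0.129), and it passed in 1 of 6 fits that left out an array, the one without gl3 replicate 1. Against the 5 other single mutants MYC1 was lower in cpc by 2.24 (BH-adjusted p = 0.0105), while gl3 differed from them by -0.10 (BH-adjusted p = 0.997), and the arrays labelled cpc ttg2 averaged 4.92.

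EGL3, the closest relative of GL3, read 6.28, 7.98 and 6.92 in gl3 and 6.86, 6.42 and 5.03 in cpc, with overlap (difference 0.96 ± 0.497, BH-adjusted p = 0.468). GL2, the homeodomain target of the WER, bHLH and TTG1 proteins, read 8.54, 8.58 and 8.98 in gl3 and 10.04, 9.54 and 8.27 in cpc. Replicates 1 and 2 of cpc were above all gl3 arrays and replicate 3 was below them, and the difference of -0.59 ± 0.468 did not pass (BH-adjusted p = 0.641). TTG2, a WRKY factor of the same pathway, read 6.71, 6.91 and 6.15 in gl3 and 7.62, 7.41 and 6.75 in cpc. The difference was -0.67 ± 0.312 (BH-adjusted p = 0.415). TTG2 was higher in cpc than the mean of the 5 other single mutants by 1.11 (BH-adjusted p = 0.0187 in limma). That mean was lowered by ttg2 itself (4.347) and by wer (5.65). The line means were 6.775 in egl3, 6.799 in myb23 and 7.198 in try, beside 7.263 in cpc. A difference from the other lines without ttg2 was not tested.

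The single-repeat MYB relatives of CPC did not pass the test either. ETC1 read 8.08, 6.47 and 6.98 in gl3 and 8.36, 8.76 and 8.53 in cpc. All cpc arrays were above all gl3 arrays, with a difference of -1.37 ± 0.44 (BH-adjusted p = 0.224). TRY read 8.37, 9.06 and 9.37 in gl3 and 9.52, 9.46 and 9.72 in cpc, without overlap (difference -0.64 ± 0.482, BH-adjusted p = 0.623), and ETC2 overlapped (difference -0.82 ± 0.586).

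Of the other members, the differences of WER (-0.28 ± 0.245), MYB23 (0.59 ± 0.379), the MYB gene GL1 (-0.29 ± 0.268) and TTG1 (0.11 ± 0.222) were small beside their errors or close to them. QKY, a membrane protein of tissue patterning (1.23 ± 0.491), the receptor-like kinase SCM (0.14 ± 0.473) and JKD, a zinc finger factor that acts from the cortex (-0.73 ± 0.371), all overlapped between the lines. The same held for the homeodomain factor HDG11 (0.07 ± 0.263) and the phospholipase PLDZ1 (0.10 ± 0.17).

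Root hair regulators were measured for 5 of 10 genes, and 0 passed in limma. At an unadjusted p under 0.05 were 3 of the 5, beside 11.5% of all genes. RHD6, the bHLH factor that starts hair formation, read 9.89, 8.86 and 9.57 in gl3 and 8.46, 8.53 and 7.62 in cpc. All gl3 arrays were above all cpc arrays, and the difference of 1.24 ± 0.344 did not pass (BH-adjusted p = 0.139). Against the 5 other single mutants RHD6 was lower in cpc by 1.55 (BH-adjusted p = 0.00292) and differed in gl3 by -0.31 (BH-adjusted p = 0.96).

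RSL4, the bHLH factor that sets hair length, read 9.86, 8.63 and 9.36 in gl3 and 8.75, 8.73 and 7.43 in cpc, with overlap (difference 0.98 ± 0.463, BH-adjusted p = 0.424). LRL1 (1.23 ± 0.573) and LRL3 (1.07 ± 0.656), bHLH factors of hair growth, overlapped as well. GTL1, a factor that ends hair growth, was the only regulator with a negative difference (-0.26 ± 0.253, BH-adjusted p = 0.703), with all cpc arrays above all gl3 arrays. RSL1, RSL2, RSL3, RSL5 and LRL2 were not among the measured genes.

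**Figure D3:**
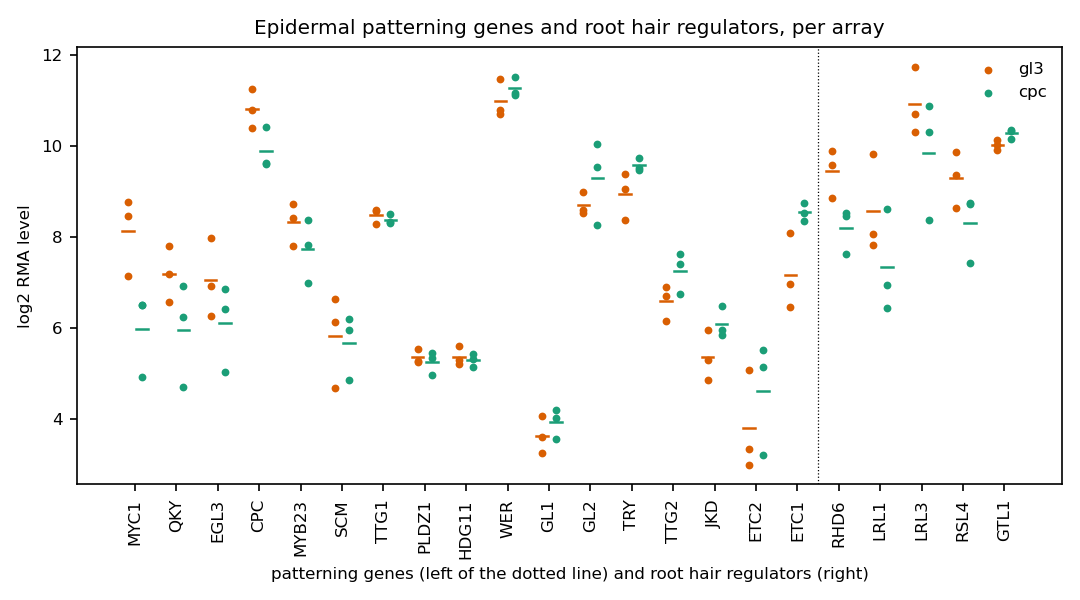
Points are single arrays of gl3 (orange) and cpc (green) and short lines are means over 3 arrays, on a log2 RMA scale, for the 17 measured patterning genes and the 5 measured root hair regulators, each group ordered by difference. The 2 lines are apart without overlap for MYC1, TRY, ETC1, RHD6 and GTL1, 5 of 22, beside 12.3% of all genes, and none of the 22 passed the test, which called 0.504% of all genes.

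Genes that act in the growing hair had mostly positive differences, none of which passed. Of 26 genes of hair tip growth 0 were called in limma, 9 had an unadjusted p under 0.05, 21 were positive, and the median difference was 0.77, against 0.00 over all genes. For 9 of them all gl3 arrays lay above all cpc arrays, beside 6.7% of all genes. All 20 hair cell wall genes had a positive difference, with a median of 0.53, 2 at an unadjusted p under 0.05 and 0 called. Of all genes, 50.1% had a positive difference and 11.5% an unadjusted p under 0.05. The share of wall genes at that p is near this background. The positive wall genes numbered 15 without cpc replicate 3, 16 without gl3 replicate 1, 17 with array weights, and 19 after centring or without cpc replicate 1. The examples in this and the next 2 paragraphs, GH3.5 apart, were chosen after their values were seen. MRH1, a receptor-like kinase of hair growth, read 10.16, 9.92 and 9.64 in gl3 and 8.41, 8.86 and 7.09 in cpc (difference 1.79 ± 0.527, BH-adjusted p = 0.179). COBL9, a protein of the hair wall, read 10.29, 9.90 and 10.44 in gl3 and 9.88, 8.88 and 8.23 in cpc (difference 1.21 ± 0.58, BH-adjusted p = 0.433).

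A single array weighed on these lists. The mean level over the 20 wall genes was 10.57, 10.00 and 9.94 on the gl3 arrays and 10.07, 9.78 and 8.82 on the cpc arrays, so that cpc replicate 3 was the lowest and the lines overlapped. Over the 26 tip growth genes it was 10.01, 9.64 and 9.85 in gl3 and 9.32, 9.58 and 8.63 in cpc. There cpc replicate 3 was the lowest too, but the lines did not overlap. Without cpc replicate 3 the median difference was 0.18 for the wall genes and 0.47 for the tip growth genes, against 0.53 and 0.77 with it. In a bulk sample, fewer hair cells and less RNA per hair cell cannot be told apart. The lateral root cap, which the reporter also marks, differed in the other direction. All 13 of its markers had a negative difference, with a median of -0.66, and 0 were called in limma. An unadjusted p under 0.05 was found for 6 of the 13, beside 11.5% of all genes. Their mean level was 9.88, 9.34 and 9.16 in gl3 and 9.92, 10.00 and 10.57 in cpc, so all cpc arrays were above all gl3 arrays and cpc replicate 3 was the highest. Without that array the median was -0.52 and 12 of 13 were negative, as 12 were without cpc replicate 1 and without gl3 replicate 3. SMB, a NAC factor of the root cap, read 8.43, 8.01 and 7.30 in gl3 and 9.36, 9.17 and 9.08 in cpc (difference -1.29 ± 0.36, BH-adjusted p = 0.145). The part of root cap cells in the differences of other genes was not tested.

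In the remaining lists 1 gene was called. GH3.5 encodes an enzyme that joins auxin to amino acids and takes it out of action. It read 8.32, 7.73 and 8.36 in gl3 and 9.70, 10.01 and 10.75 in cpc, without overlap (difference -2.02 ± 0.41, BH-adjusted p = 0.0309), and it was called in 2 of the 6 fits that left out an array. Of all 25 auxin genes 21 were negative, with a median of -0.48, and for 7 all cpc arrays lay above all gl3 arrays, beside 5.61% of all genes. The mean level over the 25 was 7.52 in cpc, 7.44 in ttg2 and 7.75 in the arrays labelled cpc ttg2. It was 6.97 in gl3 and 6.87 to 6.97 in egl3, myb23, try and wer. The related GH3.3 (-1.75 ± 0.587, BH-adjusted p = 0.242) and the auxin influx carrier AUX1 (-0.75 ± 0.218, BH-adjusted p = 0.17) did not pass. Of 19 flavonoid genes 17 were negative, with a median of -0.66, and none passed. Chalcone synthase, CHS, the first enzyme of that pathway, read 8.05, 5.84 and 7.77 in gl3 and 8.55, 9.16 and 8.85 in cpc (difference -1.64 ± 0.713, BH-adjusted p = 0.378). Among 14 nutrient transporters 11 were negative (median -0.34), with the ammonium transporter AMT1;1 at -1.12 ± 0.302 (BH-adjusted p = 0.125). Among 17 heat shock genes 11 were positive (median 0.59), and the small heat shock protein HSP18.2 read 7.39, 6.71 and 6.59 in gl3 and 5.72, 5.46 and 5.59 in cpc (difference 1.31 ± 0.355, BH-adjusted p = 0.129). At an unadjusted p under 0.05 were 9 of 25 auxin, 7 of 19 flavonoid, 2 of 14 nutrient and 4 of 17 heat shock genes, beside 11.5% of all genes, and the nutrient share is near that background.

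The other 6 lists had medians between -0.14 and 0.17 and 0 calls in limma. They were ground tissue (14 genes, 0 at an unadjusted p under 0.05), stele (16, 1), cell cycle (17, 3), iron uptake (20, 1), wound and jasmonate response (19, 3) and ethylene (16, 1). The share of all genes at that p was 11.5%. Some measures of RNA and hybridisation differed between the lines as well. The control entry for 25S ribosomal RNA ran from 10.1 to 10.8 in gl3 and from 8.04 to 9.72 in cpc, and the gap between the 3' and 5' entries of the glyceraldehyde-3-phosphate dehydrogenase control from 1.52 to 2.78 in gl3 and from 0.854 to 1.24 in cpc. Neither measure overlapped between the lines. The same gap of the actin control did overlap, at 4.95 to 6.09 in gl3 and 4.80 to 5.26 in cpc. The part of these measures in the differences was not tested. The mean over 77 mitochondrial transcripts ran from 5.48 to 6.28 in gl3 and from 4.95 to 7.13 in cpc, and all 108 calls were among the 172 made with that mean as a covariate, a fit added after the data were seen.

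The called genes were unevenly placed in the genome. Chromosome 4 held 38 of them (1.2% of 3171 measured genes) and chromosome 5 held 45 (0.918% of 4904). Together these chromosomes carried 76.9% of the calls and 37.7% of the measured genes. Chromosome 1 held 4 of 5530 (0.0723%), chromosome 2 held 15 of 3493 (0.429%) and chromosome 3 held 6 of 4262 (0.141%). Of the 38 on chromosome 4, 29 were higher in gl3, and of the 45 on chromosome 5, 24 were.

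Within these chromosomes, 15 of the 108 called genes lay next to another called gene in the order of measured genes. In 8 cases 2 measured genes in direct sequence were both called, and in 7 of them they moved the same way, as AT5G51620 did with AT5G51630, UBC8 with AT5G41710 (2.57 and 2.23) and AT5G48770 with AT5G48780 and AT5G48790 (2.30, 2.09 and 2.85). CML43 and its neighbour AT5G44470 moved in opposite directions (2.71 and -2.39). Among the 200 measured genes nearest to the GL3 locus on chromosome 5, 6 were called (3%), and among the nearest 100, 4 (4%). The share was 0.918% over chromosome 5 and 0.504% over all genes. Around CPC on chromosome 2 the counts were 0 of 200 and 0 of 100. The most calls in any window of 200 neighbouring genes was 9, on chromosome 4 from AT4G11230 to AT4G13860, which takes in CYP706A7, WRKY19 and SKU5. On chromosome 5 the most was 7, from AT5G37660 to AT5G40390, a window that ends before the GL3 locus.

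**Figure D4:**
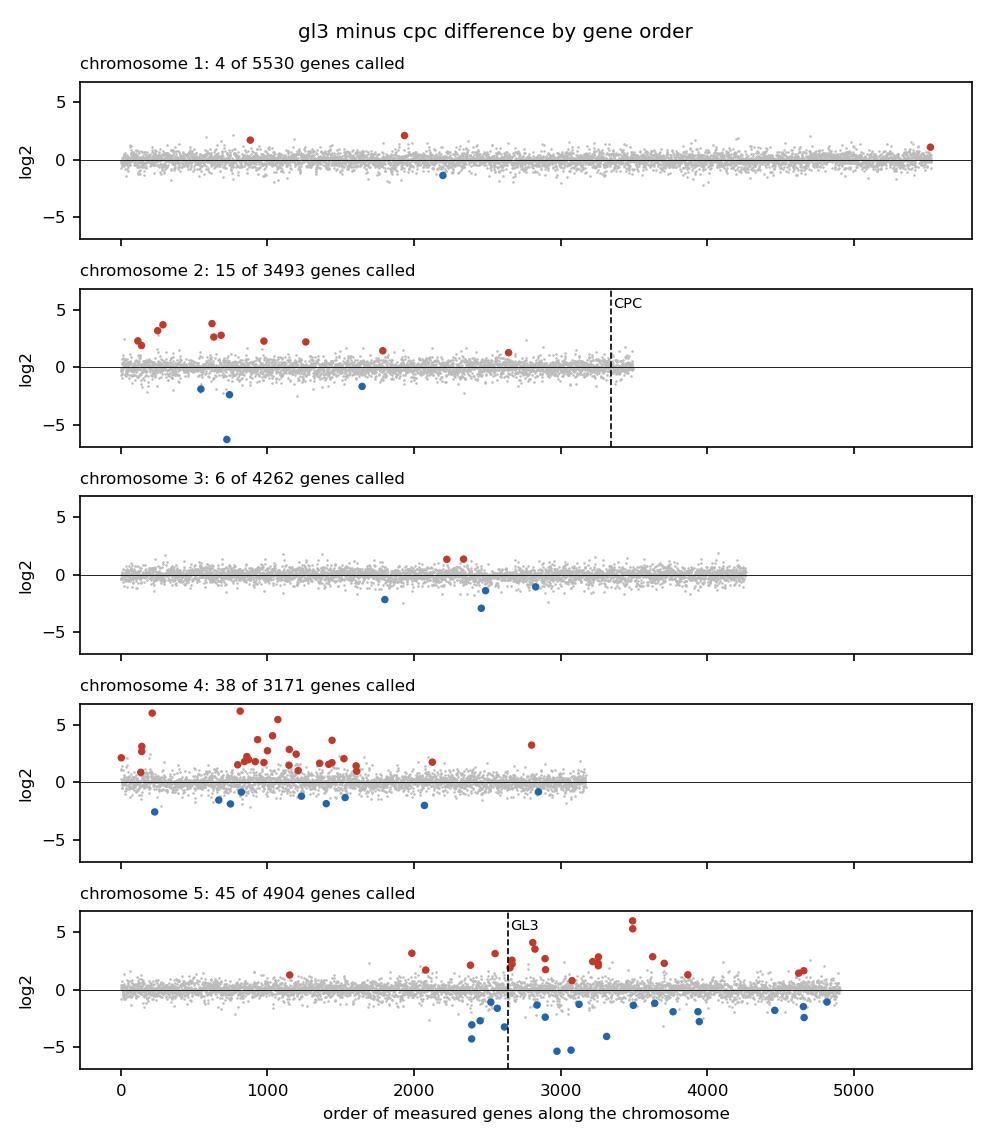
Each point is a measured gene, placed by its order along the chromosome (x axis) and by the gl3 minus cpc difference on the log2 RMA scale (y axis), with red for genes called higher in gl3, blue for lower and grey for not called. Chromosomes 4 and 5 hold 83 of the 108 calls, and the dashed lines mark the places of GL3, with 6 of its 200 nearest genes called, and of CPC, with 0 of 200.

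Single arrays stood apart for some genes in both lines, and for gl3 replicates 1 and 2 these genes were unevenly placed. By a rule chosen after the data were seen, a gene counted when 1 array of a line was at least 3 log2 units from both others and those lay within 1 unit of each other. In cpc the rule took 55 genes for replicate 1, 0 for replicate 2 and 23 for replicate 3. On chromosomes 1 to 5 lay 17, 12, 7, 7 and 10 of the 55 and 7, 1, 3, 4 and 5 of the 23. None of them were called, which is near the share of 0.504% over all genes. Over all 8 lines the highest count was 109, for egl3 replicate 2. For gl3 replicate 1 the rule took 19 genes, of which 14 were on chromosome 5, between AT5G39080 and AT5G65350. Replicate 1 was higher in all 14. In all 14 the other two gl3 arrays lay nearer to the mean of try than replicate 1 did, and replicate 1 lay nearer to wer. Closeness of the remaining arrays to try was common elsewhere too. It held in 5 of 5 chromosome 5 genes for cpc replicate 3 and in 21 of 22 for egl3 replicate 2. The array apart lay nearer to wer in 0 of those 5 and 0 of those 22. For cpc replicate 1, however, the array apart lay nearer to wer in 6 of 10 chromosome 5 genes. The remaining cpc arrays lay nearer to try in 2 of those 10.

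AT5G43030, for example, read 8.58 on gl3 replicate 1 and averaged 2.57 on the other two, beside 2.36 in cpc, 3.1 in try and 7.80 to 8.97 in egl3, myb23, ttg2 and wer. AT5G46520, also named VICTR, read 7.94 and 3.17, beside 3.37 in cpc, 3.59 in try and 6.96 to 8.16 in the same 4 lines. AT5G54020 read 8.63 and 3.07, beside 8.06 in cpc, 3.57 in try and 7.71 to 9.65 in those lines. So cpc was on the side of gl3 replicate 1 for some of these genes, 5 of 14, and on the side of the other two gl3 arrays for the rest. AT5G45500, AT5G49440 and AT5G57000, called above, were 3 of these 14.

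For gl3 replicate 2 the rule took 10 genes, 6 of them on chromosome 3, and in those 6 replicate 2 lay nearer to try than the other two arrays did. AT3G46490 read 3.27 on replicate 2 and averaged 8.13 on the other gl3 arrays, beside 3.80 in try, 6.0 in cpc and 6.41 to 8.90 in the 4 other single mutants. Closeness of the array apart to try was not particular to gl3 replicate 2. It held in 6 of 7 chromosome 3 genes for cpc replicate 1, in 0 of 3 for cpc replicate 3 and in 0 of 23 for egl3 replicate 2. For gl3 replicate 3 the rule took 36 genes, all higher on that array and spread over the chromosomes (13, 6, 8, 5 and 3 on chromosomes 1 to 5). Of those 36, 0 were called, which is near the share of 0.504% over all genes. Of the 19 and 10 genes of gl3 replicates 1 and 2, 3 and 1 were called, beside the same share. A mean over the 3 gl3 arrays is therefore no level of any single array for such genes.

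**Figure D5:**
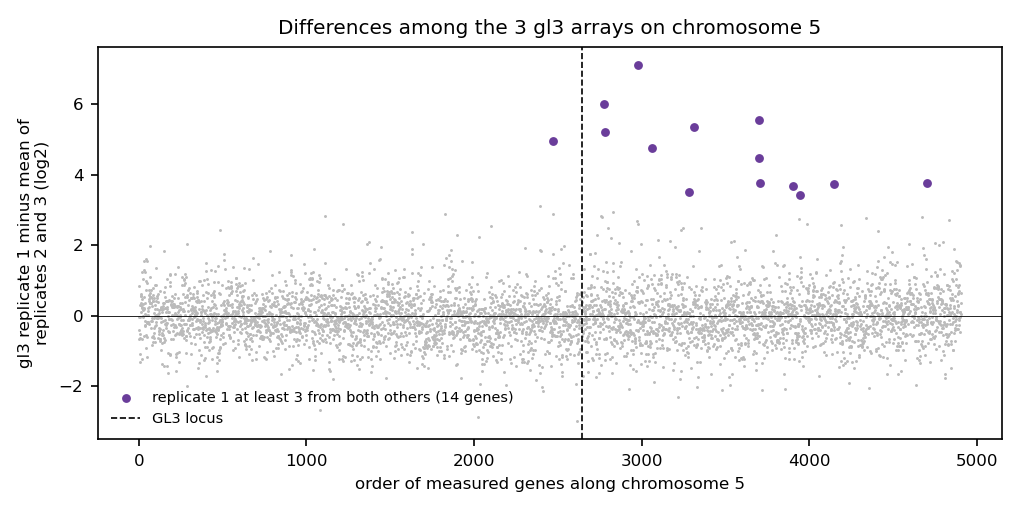
Each point is a measured gene of chromosome 5, placed by its order along the chromosome (x axis) and by the log2 RMA level on gl3 replicate 1 minus the mean of gl3 replicates 2 and 3 (y axis). The purple points are the 14 genes in which replicate 1 is at least 3 units from both others, and all 14 lie above 0, with the GL3 locus marked by the dashed line.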

How the data were processed

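The authors deposited 1 table of log2 values for 24 arrays, made with RMA, as the submitters' processing notes state. Which array, probe set definition and software were used is not given in the sources used. RMA subtracts background, evens out the arrays' distributions and sums probes, so dim genes are compressed and a change shared by most genes is reduced. The deposited log2 values of genes ran from 2.01 to 13.6, and detection calls were not used here. Of 21504 entries, 64 controls were left out of the tests. RefSeq's gene table for TAIR10.1 gave symbols and gene order for 21222 locus codes, and 218 had no match.

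limma 3.58.1 in R 4.3.3 (lmFit and eBayes) fitted 1 mean per line to all 24 arrays, with a 2-sided contrast of gl3 minus cpc and BH adjustment over 21440 genes. The fit was tested on simulated data with independent noise and the same spread per gene in all lines. That test could not show the effect of the higher spread in gl3 and cpc. Gene names came from a rule: the 12 largest differences per direction among called genes without overlap, every measured patterning and hair regulator gene, and up to 4 called members per direction of each other list. The 15 lists held 281 genes, 258 of them measured. The comparison and the lists were chosen with earlier results of these data known. Lists are described by counts and medians, without a test. The p-values rest on the spread among these arrays, and the number of arrays limits the precision. Alternatives were other sets of arrays, a replicate block, scaling, filters on dim genes, array weights, an intensity trend with a robust prior, and leaving out each array.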

Additional observations from a re-analysis of the deposited data

How the results depend on the processing

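The count of genes called between gl3 and cpc was 108 (69 higher, 39 lower) and stayed between 75 and 123 under 7 alternatives: the 21 arrays without those labelled cpc ttg2, a replicate block on 24 arrays, array centring, quantile normalisation, a mean level of at least 5, a floor of 4, and an intensity trend with a robust prior. It was 16 (12 and 4) with the 6 arrays of gl3 and cpc alone, 261 (158 and 103) with array weights, and 172 (101 and 71) with the mitochondrial mean as a covariate, which was added after the data were seen. The weights came from limma's gene-by-gene method, because its default did not converge, and gave cpc replicate 2 a weight of 4.79 and the other 5 arrays 0.364 to 0.798. The causes were not tested. Leaving out 1 array gave 46 to 212 calls, 34 to 105 higher and 11 to 108 lower.

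Deviations of same-numbered arrays from their line means correlated at r = 0.20, -0.01 and 0.39 over all genes. As 1 of the 3 was not above 0.1, the numbers were not taken to pair the arrays. The replicate block gave 123 calls (73 and 50) on 24 arrays and 10 (8 and 2) on the 6 arrays. GH3.5, the 1 call among the other lists, was lost with the 6 arrays alone (0), the block on 6 arrays (0) and the floor of 4 (0). Those lists held 2 calls with the block on 24 arrays, 4 with array weights, and 0 to 3 when an array was left out. Patterning genes and hair regulators held 1 call with array weights (ETC1) and 0 to 1 when an array was left out (MYC1 without gl3 replicate 1).

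The signs of 3 patterning genes near 0 turned. HDG11 was -0.036 after centring and -0.0099 with array weights, and it ran from -0.051 to 0.15 when an array was left out. The difference of PLDZ1 was -0.00257 after centring and ran from -0.040 (without cpc replicate 1) to 0.20. SCM ran from -0.26 to 0.70, with negative values without cpc replicate 3, gl3 replicate 2 or gl3 replicate 3. No gene among the 24 largest differences changed sign under any of these alternatives. These genes were picked for arrays that do not overlap, so leaving out arrays could not turn their sign. Over these genes and all alternatives, the call was kept in 319 cases and lost in 86. AT3G29430, AT5G40960 and AT5G49440 kept it under 7 of 17 alternatives. Without detection calls, it is not known how low a level still stands for a signal, so differences of genes near the bottom of the scale have no known floor.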
